A study of Mus musculus with 12 samples.

Results

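The aryl hydrocarbon receptor (AhR) drives a set of drug-metabolising genes known as the AhR battery, and 7 battery enzymes outside the Cyp1 family were followed here: Nqo1, Aldh3a1, Xdh, Selenbp1, Ugt1a6a, Ugt1a6b and Ugt1a7c. They were picked by symbol, with earlier results of these data known, and each matched 1 of the 55450 genes of the count table. Counts of members called therefore describe this list. Of the 7, Selenbp1, Nqo1 and Xdh were lower in alveolar type 2 (AT2) cell cultures from mice with AhR deleted in AT2 cells. The decrease was between 2.06 and 3.46 times over both treatments. Aldh3a1 was 2.89 times lower, and its edgeR call over both treatments rested on counting PBS and CRE libraries separately. DESeq2 called it lower within each treatment. Cockroach extract was accompanied by higher Nqo1 and Aldh3a1 in cultures of both genotypes. These 2 rises passed the edgeR test when libraries were paired by number, and the unpaired edgeR fit called 0 of the 7. Without pairing, DESeq2 called Nqo1 in both genotypes and Aldh3a1 in the deleted genotype alone. The pairing by number comes from correlations in these counts, as the labels name no shared animal.

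AhR is a ligand-activated transcription factor. On binding an aromatic ligand it enters the nucleus, joins ARNT and binds DNA elements built on a short core, which raises transcription of the Cyp1 oxygenases and of enzymes that make their products less reactive or easier to excrete. NQO1 reduces quinones, ALDH3A1 oxidises aldehydes, XDH oxidises hypoxanthine and xanthine to uric acid, SELENBP1 oxidises methanethiol, and the UGT1A enzymes attach glucuronic acid to phenols and other acceptors. Nqo1 and some of the others also respond to NRF2, the factor that senses oxidants and electrophiles.

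The data were RNA-seq counts from 12 libraries of mouse AT2 cells, the surfactant-making cells of the alveolus, in 4 groups of 3. Cells came from C57BL/6 mice aged 6 to 8 weeks that were either AhRfl/fl, with both Ahr alleles floxed, or Sftpc-Cre;AhRfl/fl, which add a Cre recombinase driven by the promoter of Sftpc, a surfactant protein gene of AT2 cells. After isolation by dispase digestion and removal of cells bearing CD16/32, CD45, Ter119 or Sca-1, the cells were plated on collagen and received PBS or cockroach extract (CRE, a name unrelated to the recombinase) at 50 ug per ml for 24 hours. The control genotype carries the floxed alleles without the recombinase, so deletion and presence of Cre cannot be told apart. The paper does not say whether controls were littermates, so other differences between the mouse lines cannot be told apart from these either. The sources used here do not say whether libraries of a group came from separate mice, so p-values measure the spread between these libraries.

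Libraries held 68878065 to 80935797 counted reads. All 10 AT2 markers were detected in every library, with a summed level of 7276 to 14010 CPM (counts scaled to a common library size with TMM factors), but 7 club cell markers summed to 3983 to 8155 CPM in the same libraries, nearly all of it Scgb1a1. The lowest AT2 sums, 7276 and 7520 CPM, were in the Sftpc-Cre;AhRfl/fl libraries numbered 1, and leukocyte markers were highest in the libraries numbered 1 of every group (138 to 210 CPM against 12.6 to 54.1 in the other libraries) although CD45-bearing cells had been removed. Fewer cells of a type and less RNA per cell cannot be told apart in such bulk cultures. Whole-gene Ahr counts were not called different between genotypes (log2 fold change -0.07 ± 0.08 SE over both treatments, edgeR adjusted p = 0.88), and they cover the whole gene, so they do not check the deletion. Cyp1b1, a Cyp1 enzyme induced by AhR, fell by 3.14 on the log2 scale in the deleted genotype over both treatments (adjusted p = 2.4e-05, and 0.018 with paired libraries added up).

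Per length, Nqo1 was the most abundant of the 7 and Ugt1a6b the least in each group. In AhRfl/fl cells with PBS the deposited FPKM (counts scaled for gene length and library size) averaged 61.9 ± 8.68 (SD, n = 3) for Nqo1, 53.7 ± 8.26 for Selenbp1, 31.5 ± 9.09 for Aldh3a1 and 14.5 ± 1.27 for Xdh. The UGT1A genes were low, at 3.51 ± 0.707 FPKM for Ugt1a7c, 2.29 ± 0.697 for Ugt1a6a and 0.297 ± 0.215 for Ugt1a6b. Nqo1 and Selenbp1 overlapped in their 3 libraries, as did Ugt1a7c and Ugt1a6a, and the other neighbours in this order did not. In Sftpc-Cre;AhRfl/fl cells with PBS the same order held at 25.2 ± 3.91 FPKM for Nqo1 and 16.4 ± 0.942 for Selenbp1, now without overlap between the pair, while Aldh3a1 (10.6 ± 3.87) overlapped Xdh (7.07 ± 0.946).

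**Figure D1:**
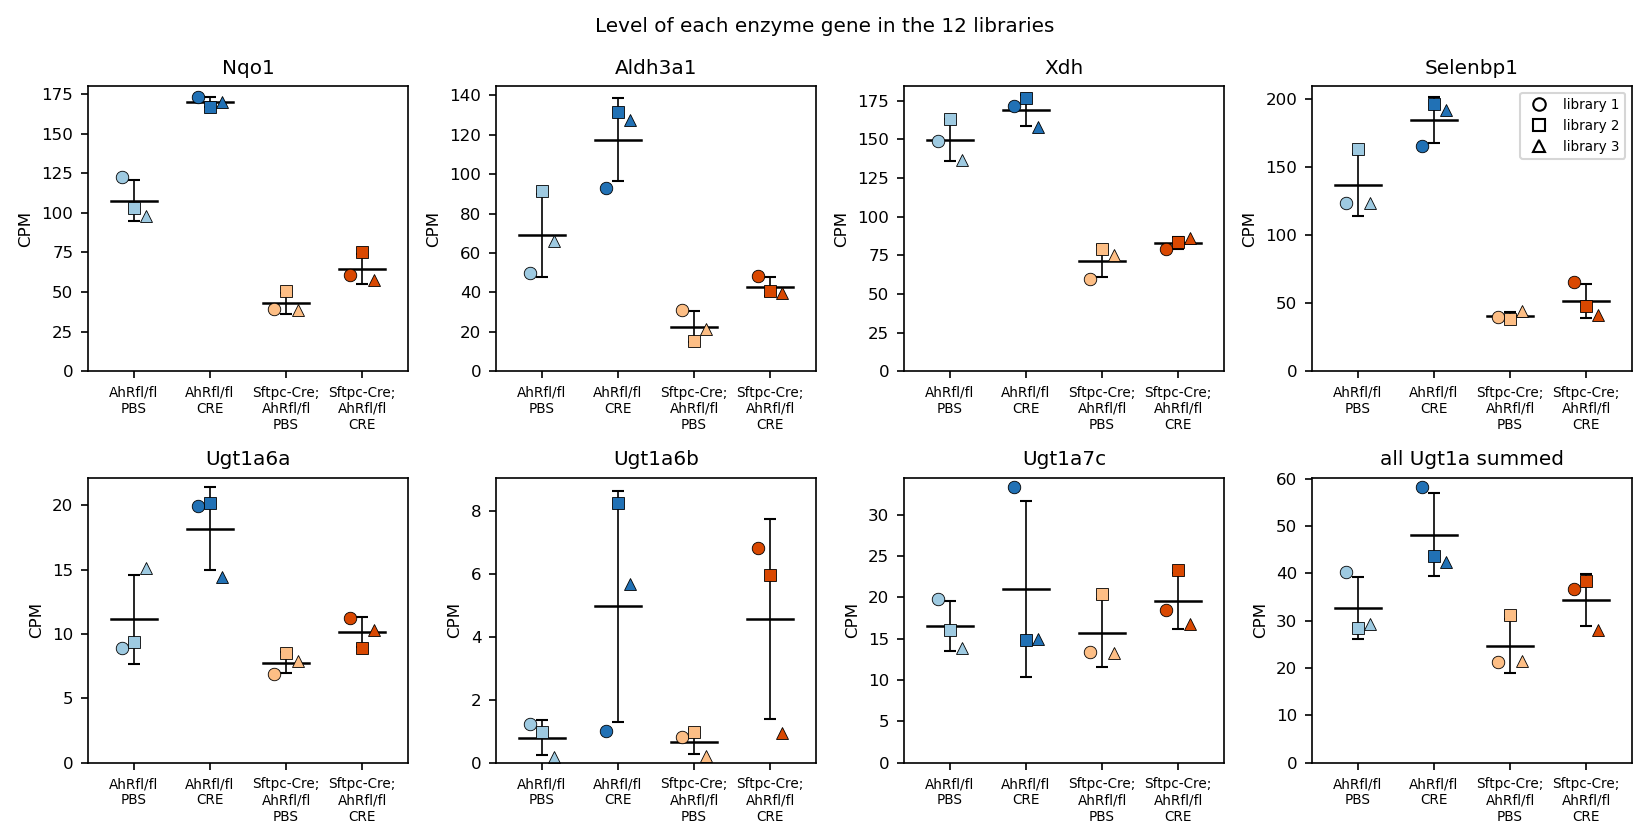
Level of each enzyme gene and of the summed Ugt1a genes in CPM (linear axes from 0), by group. Points are libraries, horizontal lines are means and error bars are SD (n = 3). Nqo1, Aldh3a1, Xdh and Selenbp1 lie lower in both Sftpc-Cre;AhRfl/fl groups than in the AhRfl/fl group of the same treatment, while the 3 points of Ugt1a6b spread widely within each CRE group.

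The first question was how far the enzymes depended on genotype. With PBS, 3 of the 7 were lower in Sftpc-Cre;AhRfl/fl cells at an adjusted p under 0.05 (Selenbp1, Nqo1 and Xdh), where 0.102% of the 20612 genes tested were called lower. With CRE the same 3 were called, where 0.112% of all genes were called lower. The contrast over both treatments called 4 of the 7, now including Aldh3a1, where 0.437% of all genes were called lower, and none of the 7 was called higher in any of these comparisons. That contrast counts 6 libraries against 6, although PBS and CRE libraries of the same number deviated together within a genotype. With the counts of each such pair added up, 3 against 3, edgeR called Selenbp1 (adjusted p = 0.015), Nqo1 (0.018) and Xdh (0.020), 3 of the 7, where 0.0534% of all genes were called lower. The median log2 fold change of the 7 was -1.07 with PBS and -1.02 with CRE, and that of all genes tested was -0.0010 and -0.0034. As the list was chosen with earlier results of these data known, these shares and medians describe it and are no independent test.

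Selenbp1 showed the largest called decrease of the 7. Its gene lies on chromosome 3 (94933056 to 94944758, plus strand, GRCm38). Its level was 124, 163 and 124 CPM in AhRfl/fl cells with PBS and 40.0, 38.5 and 44.1 CPM in Sftpc-Cre;AhRfl/fl cells with PBS. With CRE it was 165, 196 and 192 CPM in the first genotype and 65.8, 48.0 and 41.3 CPM in the second. The genotypes did not overlap under either treatment, and the highest of the 6 deleted libraries stood at 65.8 CPM against 124 CPM for the lowest of the 6 control libraries. How many of all genes separate in this way was not counted, here or for the genes below. Selenbp1 fell by 1.74 on the log2 scale with PBS (± 0.17 SE, 95% interval -2.12 to -1.37, edgeR adjusted p = 0.0016) and by 1.83 with CRE (± 0.17 SE, adjusted p = 0.0012). Selenbp2, a near-identical gene whose reads may be exchanged with those of Selenbp1, was far lower at 0.929 to 5.49 CPM. It was named after its values were seen, and its own log2 fold change over both treatments was -1.37 ± 0.29 SE (adjusted p = 0.087).

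The promoter windows of Selenbp1 and Nqo1 are shown because these genes were lower in the deleted genotype under both treatments. RefSeq windows of 300 bases (250 before and 50 after the start, GRCm38.p6) matched 4 of the 7 enzymes. Capitals mark the AhR core GCGTG, searched on both strands.
Selenbp1 (chr3:94932833-94933132, plus strand): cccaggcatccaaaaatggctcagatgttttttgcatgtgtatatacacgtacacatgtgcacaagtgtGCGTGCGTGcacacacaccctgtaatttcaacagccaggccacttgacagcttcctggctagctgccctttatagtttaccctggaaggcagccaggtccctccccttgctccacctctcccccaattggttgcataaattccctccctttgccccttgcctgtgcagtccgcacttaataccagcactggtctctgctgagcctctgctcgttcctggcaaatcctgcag
Nqo1 (chr8:107403156-107403455, minus strand): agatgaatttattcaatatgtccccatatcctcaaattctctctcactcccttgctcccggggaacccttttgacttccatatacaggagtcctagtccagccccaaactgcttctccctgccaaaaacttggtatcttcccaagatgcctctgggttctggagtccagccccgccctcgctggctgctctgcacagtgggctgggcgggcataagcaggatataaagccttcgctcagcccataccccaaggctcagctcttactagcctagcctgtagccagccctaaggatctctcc

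The Selenbp1 window held 2 GCGTG matches on the plus strand at positions -181 and -177 relative to the start, sharing 1 base. The windows of Nqo1, Ugt1a6a and Ugt1a7c held 0. Of all 32851 windows of this length, 32.4% held at least 1 match and 11.1% held 2 or more. The longer form TNGCGTG, found in 5.07% of windows, and TGACNNNGC, the antioxidant response form that NRF2 binds, found in 12.4%, were absent from all 4 windows. Sequence further than 250 bases before the start was not searched, so these absences hold for the windows alone.

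Nqo1 lies on chromosome 8 (107388225 to 107403206, minus strand). Its level was 122, 103 and 97.9 CPM in AhRfl/fl cells with PBS and 39.4, 50.5 and 38.9 CPM in Sftpc-Cre;AhRfl/fl cells with PBS. CRE cultures gave 173, 167 and 170 CPM in the control genotype, against 60.9, 75.02 and 57.4 CPM in the deleted one. No deleted library reached a control library of either treatment. Nqo1 fell by 1.33 on the log2 scale with PBS (± 0.13 SE, adjusted p = 0.0016) and by 1.40 with CRE (± 0.13 SE, adjusted p = 0.0012).

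Xdh lies on chromosome 17 (73883895 to 73950196, minus strand). Its level was 149, 163 and 136 CPM in AhRfl/fl cells with PBS and 59.5, 79.0 and 75.5 CPM in Sftpc-Cre;AhRfl/fl cells with PBS. With CRE it was 171, 177 and 158 CPM against 78.9, 83.4 and 86.4 CPM. Again the genotypes were fully separate, and the spread within each group was narrow. Xdh fell by 1.07 on the log2 scale with PBS (± 0.11 SE, adjusted p = 0.0017) and by 1.02 with CRE (± 0.11 SE, adjusted p = 0.0021).

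Aldh3a1 lies on chromosome 11 (61207537 to 61218421, plus strand). Its level was 49.6, 91.3 and 65.9 CPM in AhRfl/fl cells with PBS and 31.0, 15.3 and 21.6 CPM in Sftpc-Cre;AhRfl/fl cells with PBS. With CRE it was 93.2, 132 and 127 CPM against 48.3, 40.96 and 39.7 CPM. The genotypes did not overlap under either treatment, but the libraries of each PBS group differed widely. The log2 fold change was -1.61 ± 0.27 SE with PBS (adjusted p = 0.064) and -1.45 with CRE (adjusted p = 0.12), and Aldh3a1 fell by 1.53 over both treatments (± 0.19 SE, 95% interval -1.95 to -1.10, adjusted p = 0.0048). With paired libraries added up it was not called (-1.52 ± 0.20 SE, adjusted p = 0.12). DESeq2 called Aldh3a1 lower with PBS and with CRE, where it called 141 and 109 of the 20612 genes lower.

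The calls of single treatments depended on the library set and the tool. Without the Sftpc-Cre;AhRfl/fl PBS library numbered 1, Aldh3a1 with PBS was called (log2 fold change -1.90, adjusted p = 0.048), and a fit of the 6 PBS libraries alone called Selenbp1 only, with adjusted p = 0.052 for Nqo1 and 0.074 for Xdh. These fits called 15 of 21341 and 12 of 19216 genes lower with PBS. Without all 4 libraries numbered 1, Nqo1 was not called with PBS (-1.16, adjusted p = 0.11) or with CRE (-1.35, adjusted p = 0.064), whereas the same 4 enzymes were called over both treatments. That fit called 17, 13 and 48 of 20518 genes lower with PBS, with CRE and over both. The study's own rule, an unadjusted limma p under 0.05 with a log2 change beyond 0.5, called 4 of the 7 lower with PBS and 5 with CRE, where it called 1.76% and 1.7% of all genes lower.

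**Figure D2:**
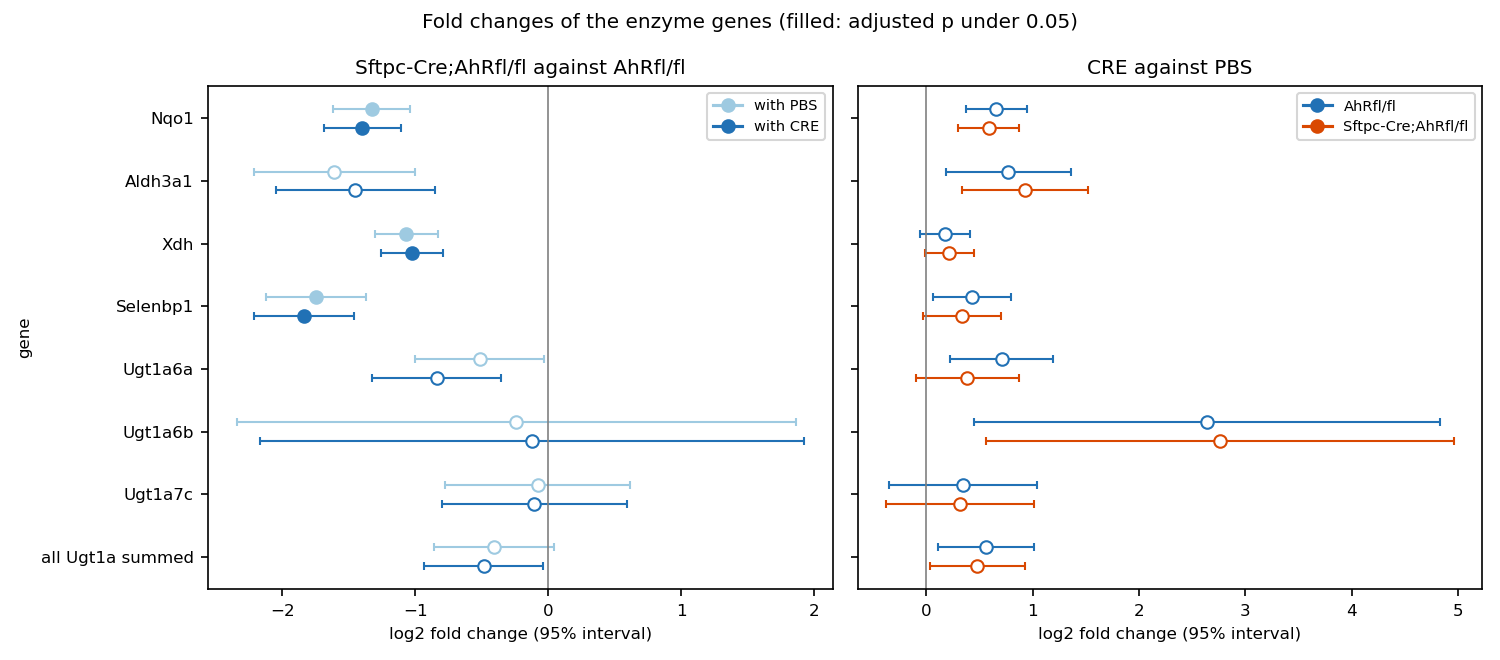
Log2 fold changes of the 7 enzyme genes and of the summed Ugt1a genes with 95% intervals, from the edgeR fit of all 12 libraries. The left panel compares genotypes within each treatment and the right panel compares CRE with PBS within each genotype. Filled points passed the test, and these are Nqo1, Xdh and Selenbp1 on the left and none on the right.

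The 3 UGT1A genes need their own account because they lie in 1 locus on chromosome 1. Ugt1a7c (88095062 to 88220002), Ugt1a6b (88103252 to 88219003) and Ugt1a6a (88134809 to 88218997) lie on the plus strand with 6 further Ugt1a genes, and each has its own first exon joined to the same shared exons. Of their exonic bases, 50.3% in Ugt1a6a, 54.6% in Ugt1a7c and 60.6% in Ugt1a6b also belonged to another Ugt1a gene. Read assignment to single genes of this locus is therefore uncertain. An opposite-strand gene, Gm20528, overlaps 394 exonic bases of each, and whether the counting used strand is not given in the sources used here.

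The junctions below show what a read can tell apart: the last 30 bases of each first exon are in lower case and the first 30 bases of the common second exon, at chr1:88215044-88215073, are in capitals (GENCODE M21, GRCm38).
Ugt1a6a: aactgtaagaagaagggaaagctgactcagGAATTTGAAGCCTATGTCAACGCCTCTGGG
Ugt1a6b: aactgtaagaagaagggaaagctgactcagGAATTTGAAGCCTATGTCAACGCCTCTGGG
Ugt1a7c: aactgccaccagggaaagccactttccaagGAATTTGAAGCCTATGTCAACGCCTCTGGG

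The junctions of Ugt1a6a and Ugt1a6b were identical over these 60 bases. Over the last 300 bases of their first exons, 293 (97.7%) were the same, against 117 (39.0%) between Ugt1a6a and Ugt1a7c.

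Among the UGT1A genes followed, Ugt1a6a had the clearest genotype values. Its level was 8.87, 9.38 and 15.1 CPM in AhRfl/fl cells with PBS, 6.87, 8.54 and 7.94 CPM in Sftpc-Cre;AhRfl/fl cells with PBS, 19.9, 20.2 and 14.5 CPM in AhRfl/fl cells with CRE and 11.2, 8.92 and 10.3 CPM in Sftpc-Cre;AhRfl/fl cells with CRE. The genotypes did not overlap within either treatment, although the gap with PBS was small and such separation was not counted over all genes. The log2 fold change over both treatments was -0.68 ± 0.15 SE (adjusted p = 0.11), and it was not called in any genotype comparison. DESeq2 called it over both treatments (adjusted p = 0.0030) and with CRE (adjusted p = 0.034). With paired libraries added up, edgeR gave -0.72 ± 0.10 SE over both treatments (adjusted p = 0.15).

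Ugt1a7c, the most abundant UGT1A gene in most libraries, overlapped between all groups. Its level was 19.8, 16.1 and 13.9 CPM in AhRfl/fl cells with PBS, 33.3, 14.8 and 15.0 CPM with CRE, 13.3, 20.4 and 13.3 CPM in Sftpc-Cre;AhRfl/fl cells with PBS, and 18.5, 23.3 and 16.8 CPM with CRE. A single library, AhRfl/fl CRE number 1, stood far above its group. The log2 fold change between genotypes over both treatments was -0.09 ± 0.22 SE (95% interval -0.58 to 0.40, adjusted p = 0.96), and without that library it was 0.16.

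Ugt1a6b was counted at 93, 66 and 13 reads in AhRfl/fl cells with PBS and at 81, 614 and 422 reads with CRE. In Sftpc-Cre;AhRfl/fl cells it had 64, 81 and 16 reads with PBS and 536, 435 and 72 reads with CRE. In each CRE group 1 library stayed at the level of the PBS libraries while the other 2 stood above every PBS library. The log2 fold change with CRE was 2.64 ± 0.99 SE in AhRfl/fl cells (95% interval 0.45 to 4.83, adjusted p = 0.43) and 2.76 ± 1.00 SE in Sftpc-Cre;AhRfl/fl cells (adjusted p = 0.63).

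Counts of the 9 Ugt1a genes were also summed, which does not depend on how a read was divided among them but does depend on whether shared reads were dropped or counted more than once. The sum was 40.2, 28.6 and 29.2 CPM in AhRfl/fl cells with PBS and 58.3, 43.7 and 42.5 CPM with CRE, against 21.2, 31.2 and 21.5 CPM and 36.6, 38.4 and 28.1 CPM in Sftpc-Cre;AhRfl/fl cells. The genotypes were separate with CRE and overlapped with PBS. The log2 fold change of the sum between genotypes was -0.45 ± 0.14 SE over both treatments (adjusted p = 0.29). Ugt1a1, the bilirubin-conjugating gene and the only other Ugt1a gene that passed the filter on low counts, took between 0 and 25.5% of the locus reads, with 769, 139 and 8 reads in the 3 AhRfl/fl PBS libraries and 4, 16 and 0 in the 3 Sftpc-Cre;AhRfl/fl CRE libraries. Its log2 fold change over both treatments was -4.29 ± 1.26 SE (adjusted p = 0.24). DESeq2 called Ugt1a1 lower over both treatments, and edgeR with paired libraries added up did not call it. Ugt1a8 and Ugt1a9 had 0 reads in every library, where 3 reads correspond to 0.0371 to 0.0436 CPM of unscaled library size.

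**Figure D3:**
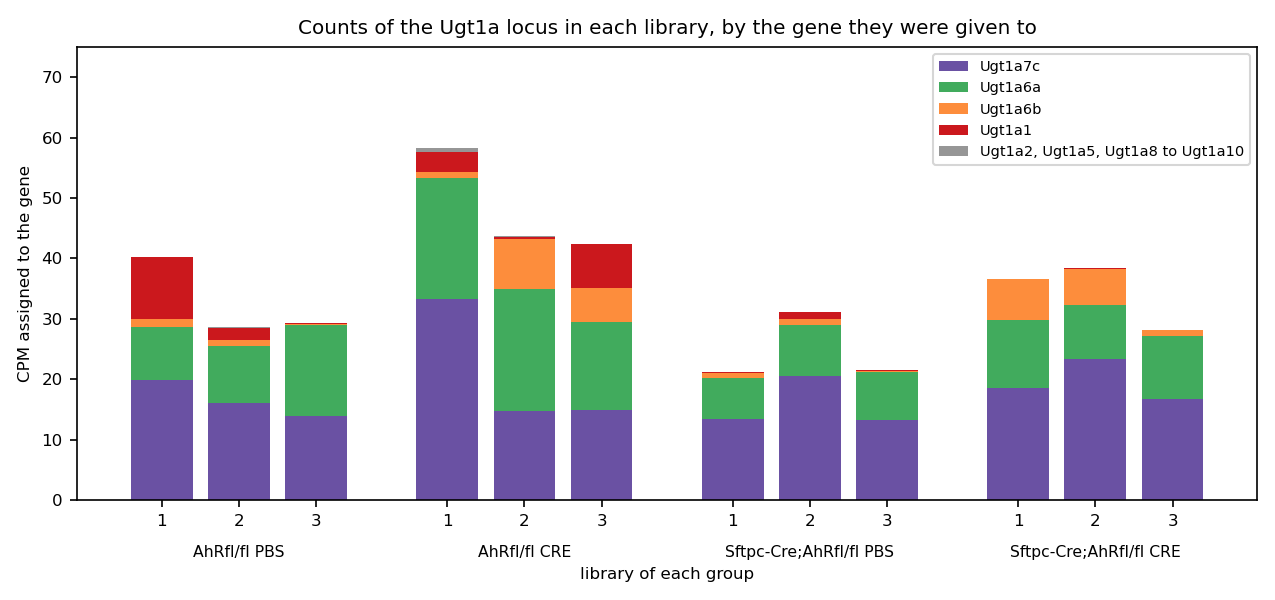
Reads of the Ugt1a locus in CPM (axis from 0) in each of the 12 libraries, stacked by the gene to which they were assigned. Ugt1a7c and Ugt1a6a take most of each bar, whereas the Ugt1a6b and Ugt1a1 segments differ several-fold between libraries of 1 group.

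The second question was whether the enzymes responded to CRE. In the unpaired edgeR fit 0 of the 7 passed an adjusted p of 0.05 in either genotype, where 0.218% of genes were called higher in AhRfl/fl cells and 0.228% in Sftpc-Cre;AhRfl/fl cells. All 7 had positive log2 fold changes in both genotypes, with a median of 0.66 in AhRfl/fl cells and 0.39 in Sftpc-Cre;AhRfl/fl cells, and that of all genes was -0.0012 and -0.0027. At an unadjusted p under 0.05, 5 of the 7 were higher in AhRfl/fl cells and 3 in Sftpc-Cre;AhRfl/fl cells, where 4.92% and 3.77% of all genes were.

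Libraries of the same number deviated together across genes between the PBS and CRE groups of a genotype. With the replicate number as a block, Nqo1 and Aldh3a1 rose with CRE in both genotypes, 2 of 7 each, where 1.87% of genes in AhRfl/fl cells and 1.33% in Sftpc-Cre;AhRfl/fl cells were called higher. DESeq2 without a block called Nqo1 in AhRfl/fl cells (1.13% of all genes called higher) and Nqo1 and Aldh3a1 in Sftpc-Cre;AhRfl/fl cells (0.834%). The study's rule called 4 and 3 of the 7, where it called 2.4% and 1.84% of all genes higher.

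Nqo1 was higher with CRE in each of the 6 pairs of libraries. The ratios of CRE to PBS were 1.42, 1.62 and 1.74 in AhRfl/fl cells and 1.55, 1.49 and 1.48 in Sftpc-Cre;AhRfl/fl cells, and the CRE and PBS libraries of a genotype did not overlap. Its log2 fold change was 0.66 in AhRfl/fl cells (± 0.13 SE, adjusted p = 0.096 without the block and 0.0038 with it) and 0.59 in Sftpc-Cre;AhRfl/fl cells (± 0.13 SE, adjusted p = 0.15 without the block and 0.0066 with it). With CRE the deleted cells reached 57.4 to 75.02 CPM, below the 97.9 to 122 CPM of AhRfl/fl cells with PBS.

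Aldh3a1 was likewise higher in all 6 pairs, with ratios of 1.88, 1.44 and 1.93 in AhRfl/fl cells and 1.56, 2.69 and 1.83 in Sftpc-Cre;AhRfl/fl cells. Its log2 fold change was 0.77 in AhRfl/fl cells (± 0.27 SE, adjusted p = 0.39 without the block and 0.041 with it) and 0.93 in Sftpc-Cre;AhRfl/fl cells (± 0.27 SE, adjusted p = 0.40 without the block and 0.028 with it). Its CRE and PBS libraries did not overlap within either genotype.

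The other enzymes moved less or less evenly. The ratios of CRE to PBS were 1.09 to 1.16 for Xdh in AhRfl/fl cells and 1.06 to 1.33 in Sftpc-Cre;AhRfl/fl cells, and its log2 fold change was 0.17 ± 0.11 SE and 0.22 ± 0.11 SE. Selenbp1 had ratios of 1.202 to 1.55 in AhRfl/fl cells, where its CRE libraries lay above all PBS libraries, and 0.936 to 1.64 in Sftpc-Cre;AhRfl/fl cells. Ugt1a6a had ratios of 0.956 to 2.24 in AhRfl/fl cells and 1.04 to 1.64 in Sftpc-Cre;AhRfl/fl cells. For the summed Ugt1a genes the ratios were 1.45 to 1.53 in AhRfl/fl cells and 1.23 to 1.72 in Sftpc-Cre;AhRfl/fl cells, and the sum was called with the block in AhRfl/fl cells (log2 fold change 0.56, adjusted p = 0.032) and not in Sftpc-Cre;AhRfl/fl cells (0.49, adjusted p = 0.060).

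The third question was whether the response to CRE differed between genotypes. The interaction test called none of the 7, 0 at an adjusted p under 0.05 (0.0% of all genes) and 0 at an unadjusted p under 0.05 (3.7% of all genes), and DESeq2 and the blocked fit also called 0 of the 7. The difference in log2 response, deleted minus control, was -0.07 for Nqo1 (95% interval -0.48 to 0.33) and 0.16 for Aldh3a1 (-0.67 to 0.99). It was 0.04 for Xdh (-0.29 to 0.37) and -0.09 for Selenbp1 (-0.61 to 0.43). These intervals allow differences as large as the CRE responses themselves for Aldh3a1, Xdh and Selenbp1.

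Beside the 7, the receptor list (Ahr, Arnt, the repressors Ahrr and Tiparp, and the Cyp1 genes) had 6 of its 7 members tested. In Sftpc-Cre;AhRfl/fl cells 2 of the 6 fell with PBS and with CRE, Cyp1b1 by 3.10 and 3.17 and Tiparp by 0.98 and 1.17 on the log2 scale, where 0.102% and 0.112% of all genes were called lower. The contrast over both treatments called 4 of the 6, where 0.437% of all genes were called lower, with log2 fold changes of -3.14 for Cyp1b1, -1.94 for Ahrr, -1.52 for Cyp1a1 and -1.08 for Tiparp, and Arnt had -0.05 ± 0.08 SE. With paired libraries added up, Cyp1b1 alone of the 6 was called, and the adjusted p was 0.11 for Tiparp, 0.42 for Ahrr and 0.49 for Cyp1a1. The list's median was -1.30, against -1.05 for the 7 enzymes and -0.0059 for all genes. With CRE the unpaired fit called 0 of these 6 in either genotype, with 0 at an unadjusted p under 0.05. Cyp1b1 had 0.15 ± 0.25 SE in AhRfl/fl cells and 0.08 ± 0.25 SE in Sftpc-Cre;AhRfl/fl cells. DESeq2 also called 0 of the 6 with CRE, and the blocked fit called Tiparp in AhRfl/fl cells (0.31, adjusted p = 0.040). At an unadjusted p under 0.05 the blocked fit had 4 of 6 in AhRfl/fl cells, where 18.9% of all genes were. In Sftpc-Cre;AhRfl/fl cells it had 1 of 6, where 14.1% of all genes were.

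The NRF2 list (Nfe2l2, its inhibitor Keap1 and 8 genes it is known to drive) was tested whole. With CRE 4 of 10 rose in AhRfl/fl cells: Slc7a11, the cystine transporter, by 1.48, Gclc and Gclm, the subunits of the enzyme that starts glutathione synthesis, by 1.24 and 0.80, and Gsr, glutathione reductase, by 0.41 on the log2 scale. In Sftpc-Cre;AhRfl/fl cells 3 of 10 rose, Gclm by 1.10, Gclc by 1.08 and Gsr by 0.44, and Slc7a11 had 1.19 ± 0.23 SE (adjusted p = 0.080). Of all genes, 0.218% were called higher in AhRfl/fl and 0.228% in Sftpc-Cre;AhRfl/fl cells. The blocked fit called 6 of 10 in each genotype, adding Hmox1, which breaks down heme, at 0.50 and 0.58 and Nfe2l2 at 0.37 and 0.39, and calling Slc7a11 in both. That fit called 1.87% and 1.33% of all genes higher. Without the block, Txnrd1, thioredoxin reductase, had 0.42 ± 0.21 SE and 0.44 ± 0.21 SE, Srxn1, sulfiredoxin, 0.18 ± 0.22 SE and 0.59 ± 0.22 SE, and Osgin1 0.16 ± 0.45 SE and -0.51 ± 0.45 SE. The list medians were 0.41 and 0.51, and those of all genes were -0.0012 and -0.0027. Between genotypes 1 of 10 was called over both treatments: Nfe2l2, the gene of NRF2 itself, had -0.43 ± 0.07 SE (adjusted p = 0.027, and 0.51 with paired libraries added up), and the list's median was -0.23. In that contrast 0.437% of all genes were called lower, and the median of all genes was -0.0059.

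**Figure D4:**
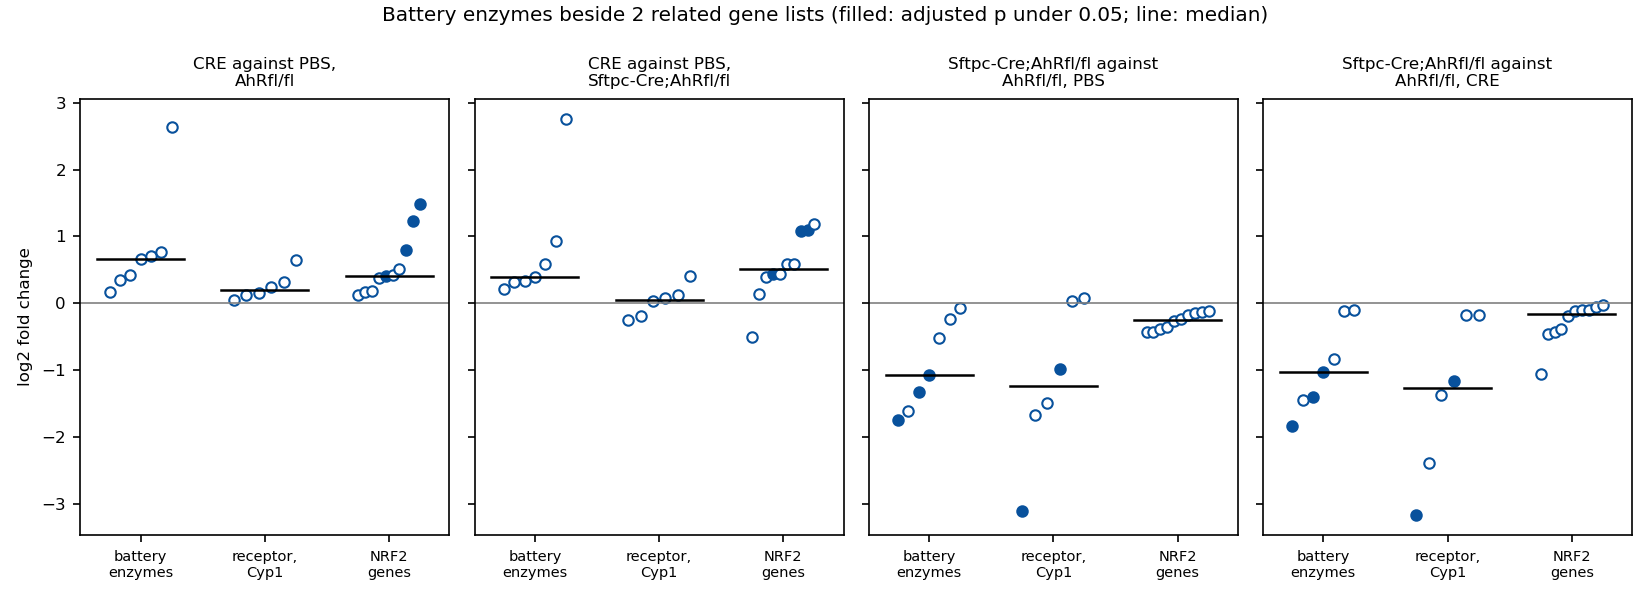
Log2 fold changes of the 7 battery enzymes, the 6 tested receptor and Cyp1 genes and the 10 NRF2 genes in the 4 comparisons, with list medians as lines. Filled points passed the test. In the genotype panels the called points lie among the enzymes and the receptor list, and in the CRE panels among the NRF2 genes.

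Relatives of the enzymes were tested as a list of 9, of which 6 passed the filter and the unpaired edgeR fit called 0 in any comparison. At an unadjusted p under 0.05 there were 2 of 6 with PBS, 2 with CRE and 3 over both treatments, where 8.37%, 5.95% and 9.93% of all genes were. Nqo2, the nearest relative of Nqo1, had 0.09 ± 0.09 SE over both treatments and Aldh3a2, the fatty aldehyde dehydrogenase, had -0.19 ± 0.07 SE. Aldh3b1 had 0.25 ± 0.14 SE, and Aox1, an aldehyde oxidase related to Xdh, had -0.15 ± 0.09 SE. DESeq2 called Selenbp2 lower with CRE and over both treatments, and the aldehyde oxidase Aox3 over both. Of the 20612 genes tested, DESeq2 called 109 lower with CRE and 260 over both. With the number as a block edgeR called Aox3 in all 3 genotype comparisons and Aldh3a2 over both, and with paired libraries added up it called 0 of 6. The blocked fit called 52, 37 and 141 of all genes lower with PBS, with CRE and over both. Aox3 was named after its values were seen.

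Ciliated cell markers shared a direction with genotype and AT1 cell markers with CRE. Between genotypes all 8 ciliated cell markers had positive log2 fold changes under both treatments, where the median of all genes was -0.0010 and -0.0034. Of the 8, edgeR called 0 and DESeq2 called 2 over both treatments, where DESeq2 called 253 of 20612 genes higher. The summed level of these markers was 136 to 183 CPM in AhRfl/fl PBS and 180 to 285 CPM in Sftpc-Cre;AhRfl/fl PBS libraries. It was 116 to 179 CPM in AhRfl/fl CRE and 183 to 285 CPM in Sftpc-Cre;AhRfl/fl CRE libraries. All 8 AT1 cell markers had negative log2 fold changes with CRE in both genotypes, where the median of all genes was -0.0012 and -0.0027. The unpaired fit called 0 of 8, the blocked fit 5 in AhRfl/fl and 4 in Sftpc-Cre;AhRfl/fl cells, and DESeq2 4 and 1. Of the 20612 genes tested, the blocked fit called 362 and 164 lower and DESeq2 145 and 66. The AT1 sum was 2694 to 3465 CPM with PBS and 1898 to 2402 CPM with CRE in AhRfl/fl cells, and 2898 to 3890 CPM and 2211 to 2813 CPM in Sftpc-Cre;AhRfl/fl cells. With the block, 4 of the 10 AT2 markers in AhRfl/fl cells and 3 in Sftpc-Cre;AhRfl/fl cells were called with CRE, in both directions. That fit called 748 and 439 of all genes in the same order. The AT2 sum was 12014 to 13665 CPM with PBS and 10654 to 11833 CPM with CRE in AhRfl/fl cells. In Sftpc-Cre;AhRfl/fl cells it was 7276 to 13530 CPM and 7520 to 14010 CPM. The club sum was lower with CRE in every same-numbered pair. It was 4708 to 7856 CPM with PBS and 3983 to 6366 CPM with CRE in AhRfl/fl cells. In Sftpc-Cre;AhRfl/fl cells the club sum was 4876 to 8155 CPM and 4345 to 6736 CPM. The club, macrophage, leukocyte, endothelial and fibroblast lists had 0 genes called by the unpaired edgeR fit in any comparison, and the blocked fit called at most 2 genes of any of them. Over all genes the blocked fit called between 55 and 748 in the 5 comparisons of treatment or genotype. Of all marker lists only Muc5b, Bpifb1, Nkg7 and Siglecf were at 0 in any library. The part of these cells in the genotype and CRE results was not tested.

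Across the 12 libraries, Nqo1, Aldh3a1, Xdh and Selenbp1 varied together, with Pearson r of log2 CPM between 0.845 and 0.959, and Ugt1a6a followed them at 0.740 to 0.802. Ugt1a7c had r of 0.0504 to 0.326 with these 5, and Ugt1a6b 0.159 to 0.418. These values include the differences between groups and the libraries shared by all genes. Among 14542 genes, the most like Nqo1 was Cpox, a heme synthesis enzyme (r = 0.950), followed by Xdh (0.946). Xdh was most like Acp1 (0.973) and Tiparp (0.967), Selenbp1 most like the carboxylesterase Ces1g (0.984) and Cyp1b1 (0.970), and Aldh3a1 most like Dynlt1c (0.952) and Pik3r3 (0.951). The highest values were 0.908 with Pole4 and 0.880 with Tbl1xr1 for Ugt1a6a, 0.893 with Mif and 0.883 with Nod1 for Ugt1a7c, and 0.943 with Psme2b and 0.900 with Rps6ka1 for Ugt1a6b.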

How the data were processed

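Per the labels and methods, the authors made stranded poly(A) libraries, and the submitters' processing notes name STAR 2.7.2b, Partek and Salmon with GRCm38 (mm10). How reads shared between genes were counted is not given in the sources used here. The deposited tables hold whole-number counts and FPKM per gene. The authors' FPKM divide by a length near that of all merged exons of a gene and are 0.0001 where the count is 0. The 12 single-library tables equal the combined table. All 55450 gene IDs matched GENCODE M21, which gave names and coordinates.

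Counts were fitted with edgeR 4.0.16 (R 4.3.3; TMM, filterByExpr with a minimum count of 10, 20612 genes, quasi-likelihood test of 4 group means over 12 libraries) and adjusted by Benjamini-Hochberg over all genes at 0.05. CPM were counts over TMM-scaled library sizes. Intervals are 95%. Members and gene lists were chosen with earlier results of these data known. The text names all members, the called genes of each list with up to 4 others of highest mean CPM, and per member the 2 genes of at least 1 CPM most like it by Pearson r. Purine and glucuronate lists are reported in the closing section.

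Pairing was checked on deviations from group means over 12985 genes. Same-numbered CRE and PBS libraries correlated at 0.382 to 0.660 in AhRfl/fl and 0.380 to 0.490 in Sftpc-Cre;AhRfl/fl cells, so blocked values are given for CRE. The pairing comes from these correlations. The labels name no shared animal. Same-numbered libraries of the 2 genotypes did not all correlate (-0.097 to 0.329). Alternatives were DESeq2 1.42.0, limma 3.58.1 on log2 CPM (prior count 2), the same on log2 of deposited FPKM plus a pseudocount of 1, median-of-ratios factors, library size alone, no filter, 1 CPM in 3 libraries, fits of the 6 libraries compared, each library left out, and summed Ugt1a counts. Leaving out all 4 libraries numbered 1, and adding up the PBS and CRE counts of each number within a genotype for the contrast over both treatments (3 against 3), were added after seeing the data.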

Additional observations from a re-analysis of the deposited data

How the results depend on the processing

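The number of the 7 enzymes called with CRE was 0 in AhRfl/fl cells, against 4 by the study's limma rule, 1 by DESeq2 and 2 with the replicate block. In Sftpc-Cre;AhRfl/fl cells it was 0, against 3, 2 and 2 in the same order. Between genotypes the 3 called with PBS became 1 in the fit of 6 libraries, and the 3 called with CRE became 5 by the limma rule and by DESeq2. Leaving out 1 library gave 3 to 4 with PBS, 3 with CRE and 4 over both treatments, which became 3 with paired libraries added up. The fits without 1 library called 12 to 18, 15 to 21 and 54 to 80 of all genes lower in the same order. With the number as an additive block, the genotype counts were 3, 3 and 4. Over all genes, edgeR called 48, 54, 31, 35 and 130 in the 5 comparisons (CRE in AhRfl/fl and Sftpc-Cre;AhRfl/fl cells, genotype with PBS, with CRE and over both), DESeq2 377, 238, 235, 171 and 513, the limma rule 848, 696, 846, 705 and 847, and the replicate block 748, 439, 71, 55 and 223. With paired libraries added up, 16 were called over both treatments against 130. The causes were not tested.

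Of 840 alternative fold changes, 779 kept sign and call. Of the 28 that reversed sign, 19 belonged to Ugt1a6b and Ugt1a7c. Leaving out 1 library moved Ugt1a7c from -0.15 to 0.54 for CRE in AhRfl/fl cells, and between genotypes from -0.32 to 0.069 with PBS, -0.31 to 0.39 with CRE and -0.21 to 0.16 over both. For Ugt1a6b these were -0.72 to 0.23, -0.61 to 0.45 and -0.42 to 0.11. The difference in CRE response ranged from -0.20 to 0.061 for Nqo1, -0.098 to 0.45 for Aldh3a1, -0.072 to 0.12 for Xdh and -0.30 to 0.049 for Selenbp1. Without the 4 libraries numbered 1, Ugt1a7c reversed to -0.0045 for CRE in AhRfl/fl cells and to 0.18, 0.43 and 0.30 between genotypes with PBS, with CRE and over both, Ugt1a6b to 0.086 with PBS, and the Xdh response difference to -0.034. Depth was lowest for Ugt1a6b, with 13 to 614 reads a library.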

Other observations

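A pair of neighbouring pathways were examined beside the enzymes. UDP-glucuronic acid, the donor that UGT1A enzymes use, is made from UDP-glucose by Ugdh after Ugp2 and carried into the endoplasmic reticulum by Slc35d1. Of a list of 8 such genes and family 2 UGTs, 6 were tested and edgeR called 0 in any comparison in the unpaired fit. At an unadjusted p under 0.05 there were 2 of 6 for CRE in each genotype, where 9.36% and 6.48% of all genes were, and 3 between genotypes with PBS, 1 with CRE and 3 over both treatments, where 8.37%, 5.95% and 9.93% were. Ugdh had a log2 fold change with CRE of 0.57 ± 0.10 SE in AhRfl/fl cells (adjusted p = 0.079) and 0.55 ± 0.10 SE in Sftpc-Cre;AhRfl/fl cells (adjusted p = 0.080), and it rose in both genotypes with the replicate block (adjusted p = 0.0032 and 0.0040). Slc35d1 rose with the block in Sftpc-Cre;AhRfl/fl cells by 0.37 (adjusted p = 0.031) and had 0.25 in AhRfl/fl cells (adjusted p = 0.077). Ugp2 had 0.05 ± 0.07 SE and 0.03 ± 0.07 SE, and Gusb, which removes glucuronic acid, had -0.04 ± 0.12 SE and 0.07 ± 0.12 SE. DESeq2 called 1 of the 6 with CRE in each genotype, and Ugdh between genotypes over both treatments (-0.29, adjusted p = 0.023), where edgeR with paired libraries added up gave adjusted p = 0.86. Over all genes DESeq2 called 232 higher with CRE in AhRfl/fl and 172 in Sftpc-Cre;AhRfl/fl cells, and 260 lower between genotypes over both treatments.

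Around Xdh, 5 of 7 listed genes of purine breakdown and salvage were tested, and edgeR called 0 in any comparison, with 0 at an unadjusted p under 0.05 and 0 by DESeq2 in any of the 5 comparisons of treatment or genotype. Ada2, on that list, matched no gene of the count table. With the replicate block, Nt5e, which releases adenosine from AMP, fell by 0.26 with CRE in AhRfl/fl cells (adjusted p = 0.037). Over both treatments, where Xdh fell by 1.05 on the log2 scale, the genotype difference was -0.06 ± 0.12 SE for Pnp, 0.0014 ± 0.05 SE for Hprt, 0.26 ± 0.15 SE for Nt5e and -0.07 ± 0.22 SE for Gda.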
